A study of Mus musculus with 6 samples.

Results

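The windows described here are stretches of the mouse genome that are dense in CpGs and partly methylated in normal blood stem and progenitor cells. A window was 1 kb of an autosome; it was kept if it listed at least 41 CpGs, had at least 20 reads in every sample, and had a level between 10 and 80% in the pooled reads of the 3 WT samples. A level is the percentage of reads that were methylated. A read is counted at each CpG it covers. The rule gave 2771 windows, which is 14.9% of the 18618 CpG-dense windows with enough reads and 0.358% of the 774732 windows of any density that could be tested. Of the other CpG-dense windows, 14570 were below 10% in WT and 1277 were above 80%, and 341 more had too few reads. The WT level chose the windows, so their difference between the groups is given as a description with no test. Permutation tests are given only where 1 WT sample classed the windows and the other 2 were measured. Calls of a test fitted to all windows of the genome are counted as a description, since they use the same WT reads as the rule.

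CpG-dense stretches, called CpG islands, cover the start sites of many genes and are usually free of methylation in every tissue, while most CpGs between them are methylated. Partial methylation of such a stretch can mean that its CpGs differ, as at the edge of an island, or that alleles or cells differ, as at imprinted genes, where the copy from 1 parent carries the mark. Dnmt enzymes add the methyl group to cytosine, and Tet enzymes oxidise it to 5-hydroxymethylcytosine and further forms, a step on the way to its removal. Bisulfite sequencing does not part 5-methylcytosine from 5-hydroxymethylcytosine, so a level is the sum of both.

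Whole-genome bisulfite sequencing was done on LSK cells, which lack lineage markers and carry Sca-1 and c-Kit, sorted from the marrow of femurs and tibiae after lineage-positive cells had been removed on beads. The groups were Tet2/3 DKO mice, which lack Tet2 and Tet3 (3 samples), and Wild Type mice (WT, 3 samples). The labels call the samples biological replicates and give no age, sex, strain, Cre driver or number of animals per sample, so p-values measure the spread between these samples. The series title speaks of acute loss of TET function and of myeloid cancer in mice. The table holds no RNA values, so markers of LSK cells were not checked. The deletions were checked by depth: 4 adjacent windows at chr3:133132001-133136000 held 0, 0 and 0 reads in DKO and 109, 165 and 136 in WT, lying 71.4 kb downstream of the placed Tet2 start site. A run of 3 windows at chr6:83352001-83355000, 36.7 kb downstream of the Tet3 start, held 14, 0 and 0 reads in DKO and 208, 231 and 169 in WT. Total read calls were 83560585 to 111763872 per DKO sample and 70815948 to 72747248 per WT sample, a mean of 4.09 to 5.46 and of 3.46 to 3.56 per CpG. In the partly methylated windows the median read number per window was 190 to 299 in DKO and 151 to 168 in WT. The level of mitochondrial CpGs, which reads out incomplete conversion and stray calls, was 1.53 to 1.86% in DKO and 1.21 to 1.37% in WT.

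The sequences below show how partial methylation was laid out over CpGs. They are 300-base promoters from RefSeq (GRCm38.p6), from 250 bases before to 50 after the start site, placed on mm9 by an identical spacing of all their CpGs. Each is written 5′ to 3′ on the gene's strand, and capitals mark the CpGs at 50% or more in that group's pooled reads. The promoters were chosen after their values were seen. The first promoter belongs to Nnat, an imprinted gene expressed from the paternal copy, and lies at chr2:157385564-157385863 on the plus strand. Of its 17 CpGs, 17 were in capitals in DKO and 3 in WT.
Nnat in DKO: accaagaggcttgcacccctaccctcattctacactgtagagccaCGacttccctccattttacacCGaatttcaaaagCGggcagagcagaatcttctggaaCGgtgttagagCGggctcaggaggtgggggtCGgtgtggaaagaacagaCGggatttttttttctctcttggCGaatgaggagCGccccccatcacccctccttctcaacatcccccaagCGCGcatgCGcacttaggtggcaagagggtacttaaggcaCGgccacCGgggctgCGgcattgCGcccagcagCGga
Nnat in WT: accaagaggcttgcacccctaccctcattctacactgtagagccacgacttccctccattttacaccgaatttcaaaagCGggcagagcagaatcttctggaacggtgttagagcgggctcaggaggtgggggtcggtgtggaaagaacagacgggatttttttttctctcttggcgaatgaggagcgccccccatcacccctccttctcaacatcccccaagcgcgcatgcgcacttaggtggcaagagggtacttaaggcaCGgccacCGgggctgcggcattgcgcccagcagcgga
The next belongs to Tdrd1, a Tudor-domain gene of the germ cell pathway that silences transposons, and lies at chr19:56900449-56900748 on the plus strand. Of its 20 CpGs, 11 were in capitals in DKO and 4 in WT.
Tdrd1 in DKO: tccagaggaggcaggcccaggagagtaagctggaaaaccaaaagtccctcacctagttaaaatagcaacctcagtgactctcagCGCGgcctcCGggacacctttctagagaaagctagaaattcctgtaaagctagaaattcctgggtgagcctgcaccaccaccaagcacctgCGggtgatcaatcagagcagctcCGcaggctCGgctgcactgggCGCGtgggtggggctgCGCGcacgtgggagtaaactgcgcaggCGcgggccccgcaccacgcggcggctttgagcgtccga
Tdrd1 in WT: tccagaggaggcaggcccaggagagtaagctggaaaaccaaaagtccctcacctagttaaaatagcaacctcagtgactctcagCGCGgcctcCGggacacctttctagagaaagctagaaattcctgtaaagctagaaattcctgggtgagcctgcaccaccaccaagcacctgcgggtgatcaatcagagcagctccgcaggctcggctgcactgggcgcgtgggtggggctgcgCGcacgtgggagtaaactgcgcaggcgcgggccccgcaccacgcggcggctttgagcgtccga
The promoters of 2 more imprinted genes follow. Not every imprinted promoter differed in this direction: that of Zrsr1 had 1 of 10 CpGs at 50% or more in DKO and 6 in WT, and that of Igf2r had 0 of 34 in DKO and 4 in WT. Ndn encodes necdin and lies at chr7:69492913-69493212 on the plus strand, with 5 of 11 CpGs in capitals in DKO and 0 in WT. Meg3 encodes a non-coding RNA made from the maternal copy and lies at chr12:110778956-110779255 on the plus strand, with 9 of 13 CpGs in capitals in DKO and 1 in WT. The level of this Meg3 promoter was 30.4, 56.2 and 85.1% in DKO and 25.6, 30.8 and 30.4% in WT, so the groups overlapped.
Ndn in DKO: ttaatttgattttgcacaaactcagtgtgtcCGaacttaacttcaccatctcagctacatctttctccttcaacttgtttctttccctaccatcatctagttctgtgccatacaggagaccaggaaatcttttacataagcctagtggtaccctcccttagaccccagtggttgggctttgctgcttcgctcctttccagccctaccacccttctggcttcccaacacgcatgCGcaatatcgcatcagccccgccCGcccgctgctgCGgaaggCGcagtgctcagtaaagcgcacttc
Ndn in WT: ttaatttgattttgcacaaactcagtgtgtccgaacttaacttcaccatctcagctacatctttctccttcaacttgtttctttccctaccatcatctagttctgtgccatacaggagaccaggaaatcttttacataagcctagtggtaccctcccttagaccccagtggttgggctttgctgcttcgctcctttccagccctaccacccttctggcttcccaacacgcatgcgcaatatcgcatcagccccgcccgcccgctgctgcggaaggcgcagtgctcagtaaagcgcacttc
Meg3 in DKO: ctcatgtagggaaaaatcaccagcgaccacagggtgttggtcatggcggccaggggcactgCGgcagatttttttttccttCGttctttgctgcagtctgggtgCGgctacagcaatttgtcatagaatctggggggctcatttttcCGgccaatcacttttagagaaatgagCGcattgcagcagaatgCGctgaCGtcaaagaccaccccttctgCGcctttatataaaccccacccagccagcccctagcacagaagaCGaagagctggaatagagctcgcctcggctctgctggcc
Meg3 in WT: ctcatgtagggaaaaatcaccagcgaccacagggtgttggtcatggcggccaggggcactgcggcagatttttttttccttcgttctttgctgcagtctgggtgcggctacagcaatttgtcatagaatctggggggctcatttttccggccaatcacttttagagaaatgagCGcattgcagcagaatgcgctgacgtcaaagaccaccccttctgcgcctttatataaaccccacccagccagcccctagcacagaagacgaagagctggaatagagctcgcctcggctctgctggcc
The last 2 promoters show start sites on methylated and on unmethylated ground within partly methylated windows. The promoter of Tex14, needed for the bridges between germ cells, lies on the methylated side of a window with a low and a high side, at chr11:87218317-87218616 on the plus strand, with 18 of 20 CpGs in capitals in DKO and 18 in WT. The promoter of Exoc6, a subunit of the exocyst, lies at chr19:37624658-37624957 on the plus strand inside a partly methylated window, and 0 of its 30 CpGs reached 50% in either group, so 1 sequence serves for both.
Tex14 in DKO: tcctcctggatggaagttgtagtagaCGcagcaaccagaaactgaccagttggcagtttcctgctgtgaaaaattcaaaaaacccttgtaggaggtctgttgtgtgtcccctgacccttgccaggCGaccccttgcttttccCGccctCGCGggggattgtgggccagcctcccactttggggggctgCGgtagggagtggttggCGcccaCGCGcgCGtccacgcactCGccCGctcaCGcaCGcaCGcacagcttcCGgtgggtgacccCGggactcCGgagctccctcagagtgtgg
Tex14 in WT: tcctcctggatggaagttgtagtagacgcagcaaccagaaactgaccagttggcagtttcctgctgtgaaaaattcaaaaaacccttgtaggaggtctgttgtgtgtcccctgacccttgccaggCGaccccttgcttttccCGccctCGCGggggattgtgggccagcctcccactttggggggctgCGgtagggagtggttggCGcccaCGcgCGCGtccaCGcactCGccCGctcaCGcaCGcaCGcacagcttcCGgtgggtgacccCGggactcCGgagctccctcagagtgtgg
Exoc6 in both groups: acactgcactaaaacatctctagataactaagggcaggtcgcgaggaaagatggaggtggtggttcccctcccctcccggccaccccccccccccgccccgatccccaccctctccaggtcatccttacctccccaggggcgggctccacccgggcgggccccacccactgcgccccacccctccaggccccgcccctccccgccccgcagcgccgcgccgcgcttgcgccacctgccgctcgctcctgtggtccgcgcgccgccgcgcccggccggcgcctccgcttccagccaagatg

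Most of the windows were only a little methylated in WT. Their median WT level was 17.5%, and 1067 of them lay between 10 and 15%, 554 between 15 and 20%, 497 between 20 and 30%, 220 between 30 and 40%, 114 between 40 and 50%, 98 between 50 and 60%, 109 between 60 and 70%, and 112 between 70 and 80%. They were less dense than the windows below 10%, with a median of 50 CpGs against 65. The windows formed 2590 runs of adjacent windows, and 2422 runs were single windows. The longest run held 4 windows, at chr2:174123001-174127000, on the chromosome that also carries the placed Gnas start site at chr2:174153001-174154000. The windows made up 19.3% of the CpG-dense windows on chromosome 7, the highest share, and 10.0% on chromosome 3, the lowest. Only 15 of them exceeded 3 times the median depth of all tested windows, used here as a mark of possible extra copies.

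At the limits the choice was close. Just inside the lower limit, the window at chr1:75476001-75477000, which holds a start site shared by Chpf, an enzyme of chondroitin synthesis, and Tmem198, had 2.98, 3.66 and 5.41% in DKO and 11.3, 7.43 and 12.04% in WT. Just outside it, the window with the start site of Cnbp, a nucleic acid binding protein, at chr6:87801001-87802000 had 14.7, 7.79 and 10.4% in DKO and 12.8, 12.9 and 5.11% in WT. Just inside the upper limit, chr15:78267001-78268000 had 75.7, 88.5 and 82.0% in DKO and 90.8, 81.9 and 63.8% in WT. Just outside it, chr12:26733001-26734000 had 63.8, 64.2 and 71.5% in DKO and 62.4, 80.7 and 91.5% in WT. In 3 of these 4 windows the samples of the groups overlapped.

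Few of the windows were evenly methylated in the middle range, and many had a low and a high side. The pattern was read from the pooled WT reads where at least 20 CpGs had 8 or more reads, which held for 2251 windows; the other 520 were not classed. A window was stepped if its best single break, with at least 8 CpGs on each side, parted sides whose mean levels differed by 50 points or more. It was even if the best break was under 30 points and at least 60% of its CpGs lay between 20 and 80%, and mixed otherwise. Stepped windows numbered 999 (44.4%), mixed windows 1147 (50.96%) and even windows 105 (4.66%). The patterns went with the WT level. Stepped windows made up 68.1% of the classed windows between 20 and 30%, and even windows made up 28.8% of those between 50 and 80% and 0% of those between 10 and 20%. The rule for even windows asks for most CpGs between 20 and 80%, which leaves little room for them at a level of 10 to 20%. The patterns and the levels come from the same WT reads, so nothing is read from these shares.

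The largest steps were nearly complete. The window at chr16:96381001-96382000, with 34.1, 17.2 and 26.7% in DKO and 29.2, 22.3 and 27.7% in WT, had a step of 97.7 points in WT and 2.38% of its CpGs between 20 and 80%. Another, at chr14:55222001-55223000, had 11.8, 26.2 and 16.2% in DKO and 38.6, 12.2 and 10.2% in WT, with a step of 96.7 points. The next, at chr16:29946001-29947000, had a step of 94.99 points and the last of the 4, at chr15:81525001-81526000, one of 94.7 points. The DKO and WT samples overlapped in all 4 of these windows. The most even windows were of another kind. The window at chr2:174124001-174125000, in the run of 4, had 100% of its CpGs between 20 and 80% in WT, and its level was 13.2, 34.8 and 29.5% in DKO and 59.9, 51.5 and 26.8% in WT. Another even window of that chromosome, chr2:174152001-174153000, adjoins the window with the Gnas start site and had 47.0, 47.7 and 49.8% in DKO and 44.0, 52.0 and 44.1% in WT. A further even window, at chr11:5906001-5907000, varied widely, with 74.6, 91.5 and 52.6% in DKO and 52.9, 96.8 and 24.0% in WT, and the groups overlapped in all 3.

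In DKO reads, which did not place the breaks, the steps were still there. Of the 999 stepped windows, 998 stepped in the same direction in pooled DKO reads and 857 by at least 50 points, and the median step was 67.5 points in DKO and 66.4 in WT. The WT reads chose these steps for their size, so the 2 medians are not compared. Single CpGs with at least 8 pooled reads in each group shifted a little towards methylation. Over all partly methylated windows, 12.7% of CpGs were above 80% in DKO and 10.5% in WT, and 62.3% were below 20% in DKO against 64.9% in WT. In even windows, 63.3% of CpGs lay between 20 and 80% in DKO and 73.6% in WT, 21.9% were above 80% in DKO and 13.4% in WT, and 14.8% were below 20% in DKO and 12.997% in WT. The rule for even windows asks for many middle CpGs in WT, so a lower share in reads that it did not use follows from the choice, and nothing is read from it. In addition, the pooled median depth of a CpG was 16 reads in DKO and 12 in WT over all partly methylated windows.

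**Figure D1:**
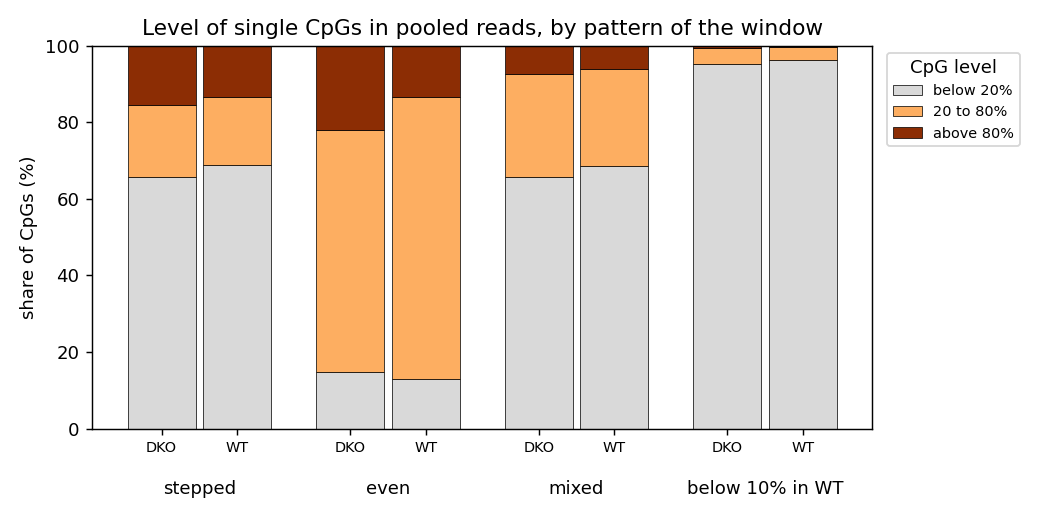
Share of CpGs (%) below 20%, at 20 to 80% and above 80% in pooled reads, for stepped, even and mixed windows and for CpG-dense windows below 10% in WT, with DKO left of WT in each pair. In even windows 63.3% of CpGs lay at 20 to 80% in DKO and 73.6% in WT, and in windows below 10% the share of CpGs below 20% was 95.2% in DKO and 96.4% in WT.

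Methylated neighbours were common, and low ones less so than beside unmethylated windows. Of the 2712 with a level on both sides, 73.2% had a window at 80% or more next to them and 42.0% had one below 10%. For the CpG-dense windows below 10%, these shares were 29.4% and 59.95%. By the levels of the windows 1 kb before and after, 796 (28.7%) lay between a low and a high neighbour, 229 (8.26%) between high ones and 31 (1.12%) between low ones, and 1656 had another combination. Of the 796 windows between a low and a high neighbour, 402 were stepped and 1 was even. The windows between high neighbours, which stand alone in methylated ground, had a median WT level of 36.3%, against 16.7% for those between a low and a high one. At 5 kb, 91.1% of the partly methylated windows had a neighbour at 80% or more.

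Start sites were fewer in these windows than in unmethylated ones. A placed RefSeq start site lay in 801 of the windows (28.9%), in 7418 of the windows below 10% (50.9%) and in 46 of those above 80% (3.60%). The promoters in partly methylated windows had a median GC content of 64.0% and a median ratio of observed to expected CpGs of 0.768, against 65.3% and 0.844 in windows below 10%. Of 365 genes that start in a stepped window, 351 (96.2%) started on the unmethylated side, at a median of 332.5 bp from the break. The methylated side lay upstream of the start for 234 and downstream for 131. Tex14, shown above, is one of the exceptions. Only promoters with at least 8 CpGs could be placed, which favours starts on the side with more CpGs. With the break placed by WT replicate 1, the unmethylated side held 76.5% of the CpGs. The share that this rule alone would give was not tested, so nothing is read from the 96.2%.

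Over all 2771 windows the level was slightly higher in DKO. It was 24.3, 23.4 and 23.8% in DKO and 23.1, 22.3 and 22.1% in WT, a difference of 1.34 points between the group means. Every DKO sample was above every WT sample. The reads of a sample do not fall evenly over a window, so the difference was also taken with the same weight for each CpG, over CpGs read in all 6 samples and windows with at least 8 of them. In these 2566 windows the levels were 24.7, 25.02 and 24.5% in DKO and 22.7, 22.6 and 22.2% in WT, a difference of 2.19 points, against 1.28 points in the same windows with reads as counted. The CpG-dense windows below 10% had 3.28, 3.08 and 3.02% in DKO and 2.63, 2.19 and 2.37% in WT, a difference of 0.731 points, or 0.610 with the same weight per CpG. Those above 80% differed by 0.341 points, with no overlap. A higher level in DKO was not particular to the partly methylated windows. Over single windows their median difference was 0.894 points and the DKO mean was higher in 55.5%. Over all tested windows these values were 0.928 points and 58.2%. With the same weight per CpG the medians were 1.74 points and, over all tested windows, 1.13 points. The mitochondrial level was also higher in every DKO sample, and its part in these differences was not tested beyond the correction given with the classed windows. With the same weight per CpG, the difference was largest in the 50 to 60% band, at 5.47 points, and was 2.20 points in the 70 to 80% band and 1.42 points in the 10 to 15% band. With reads as counted it was largest in the 60 to 70% band, at 4.29 points. The groups then overlapped in the 15 to 20, 20 to 30 and 50 to 60% bands.

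**Figure D2:**
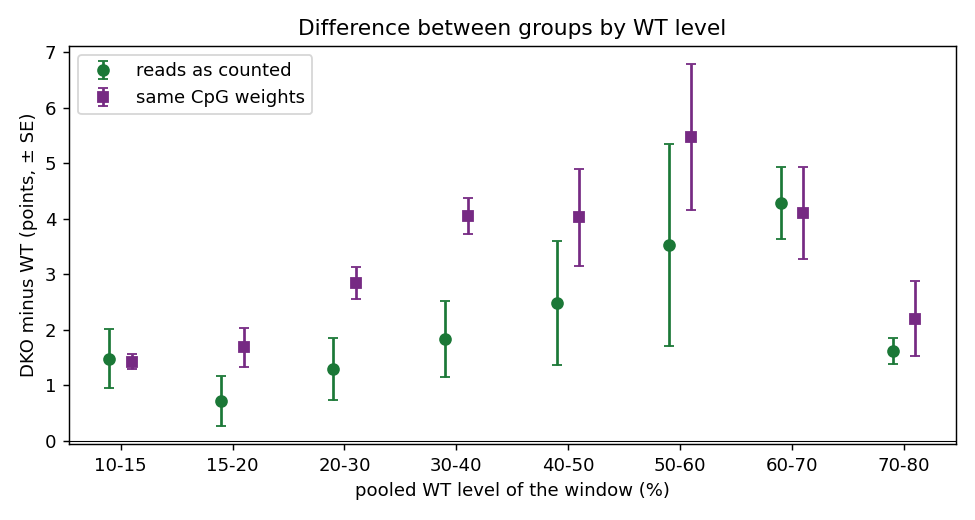
DKO minus WT in percentage points (vertical axis) by the pooled WT level of the window (horizontal axis, %), as group means over 3 samples each with standard errors, with reads as counted and with the same weight for each CpG. The difference is above 0 in every band, from 0.714 to 4.29 points with reads as counted and from 1.42 to 5.47 points with the same weights. With reads as counted the samples of the groups overlap in the 15 to 20, 20 to 30 and 50 to 60% bands.

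The higher level in DKO was also seen when the measured WT samples had no part in choosing the windows. WT replicate 1 classed 3120 CpG-dense windows at 10 to 80%. Their level was 21.3, 20.1 and 20.2% in DKO and 18.2 and 17.9% in WT replicates 2 and 3, a difference of 2.50 ± 0.391 points (SE). Every DKO sample was above both WT samples, and the two-sided exact permutation p was 0.2, the smallest that 3 samples against 2 allow, so no comparison of this kind could pass 0.05. The 14233 windows below 10% in WT replicate 1 had 3.14, 3.01 and 3.00% in DKO and 2.30 and 2.49% in WT, a difference of 0.656 ± 0.106 points (exact permutation p = 0.2). The difference was larger in the partly methylated windows by 1.85 ± 0.397 points (exact permutation p = 0.2). It was larger by 1.55 points with WT replicate 2 as the classing sample and by 1.24 points with WT replicate 3. After correction for each sample's mitochondrial level, the partly methylated windows differed by 2.14 points (exact permutation p = 0.2). The windows below 10% then differed by 0.182 points and the samples of the groups overlapped (exact permutation p = 0.4).

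**Figure D3:**
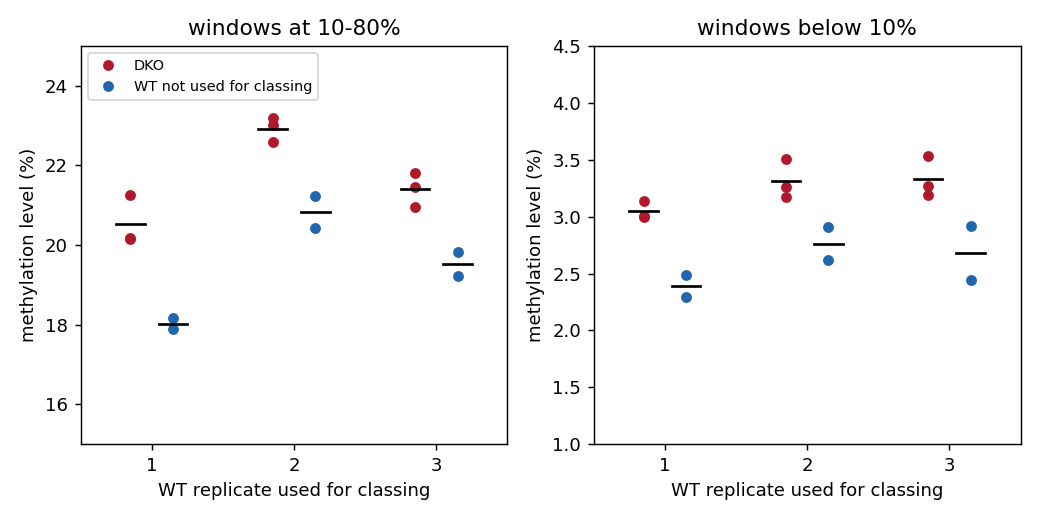
Methylation level (%) per sample of CpG-dense windows at 10-80% (left panel) and below 10% (right panel) in the WT replicate on the horizontal axis, for the 3 DKO samples and the 2 WT samples not used for classing, with black lines at the means. The vertical axes are cut and differ between panels. All DKO points lie above all WT points of the same classing, and with WT replicate 1 the gap between means is 2.50 points on the left and 0.656 on the right.

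Within stepped windows, both sides were higher in DKO. With the break placed by WT replicate 1 in 1581 windows, the methylated side had 68.4, 68.9 and 67.6% in DKO and 64.2 and 63.3% in WT replicates 2 and 3, a difference of 4.57 ± 0.626 points (SE, exact permutation p = 0.2). The unmethylated side had 7.76, 8.01 and 7.61% in DKO and 6.14 and 5.93% in WT, a difference of 1.75 ± 0.157 points (exact permutation p = 0.2). The step itself, methylated minus unmethylated side, was 60.7, 60.9 and 59.95 points in DKO and 58.1 and 57.3 points in WT, larger in DKO by 2.81 ± 0.475 points (exact permutation p = 0.2). The groups did not overlap in any of these 3 measures, and 0.2 is again the smallest p. With the break placed by WT replicate 2 the sides differed by 3.90 and 1.53 points, and by WT replicate 3 by 3.497 and 1.72 points. The step was then larger in DKO by 2.36 points with WT replicate 2 and by 1.78 points with WT replicate 3. The unmethylated side held 76.5% of the CpGs of these windows and took 75.6, 77.1 and 75.8% of the reads in DKO and 76.0 and 75.4% in WT replicates 2 and 3.

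Each CpG was given the same weight in every sample for the profile along the distance from the break. In the first 100 bp on the methylated side the level was 48.2, 49.4 and 47.6% in DKO and 43.6 and 42.6% in WT, 5.33 points apart. In the last 100 bp on the unmethylated side it was 20.0, 19.9 and 19.3% in DKO and 15.5 and 15.3% in WT, 4.30 points apart. With reads as counted these differences were 5.29 and 4.11 points. At 500 to 600 bp on the unmethylated side the groups were 0.822 points apart. From 1000 bp outwards on the methylated side the gap lay between 1.85 and 3.09 points. The levels along this profile are a description, with no test at single distances.

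**Figure D4:**
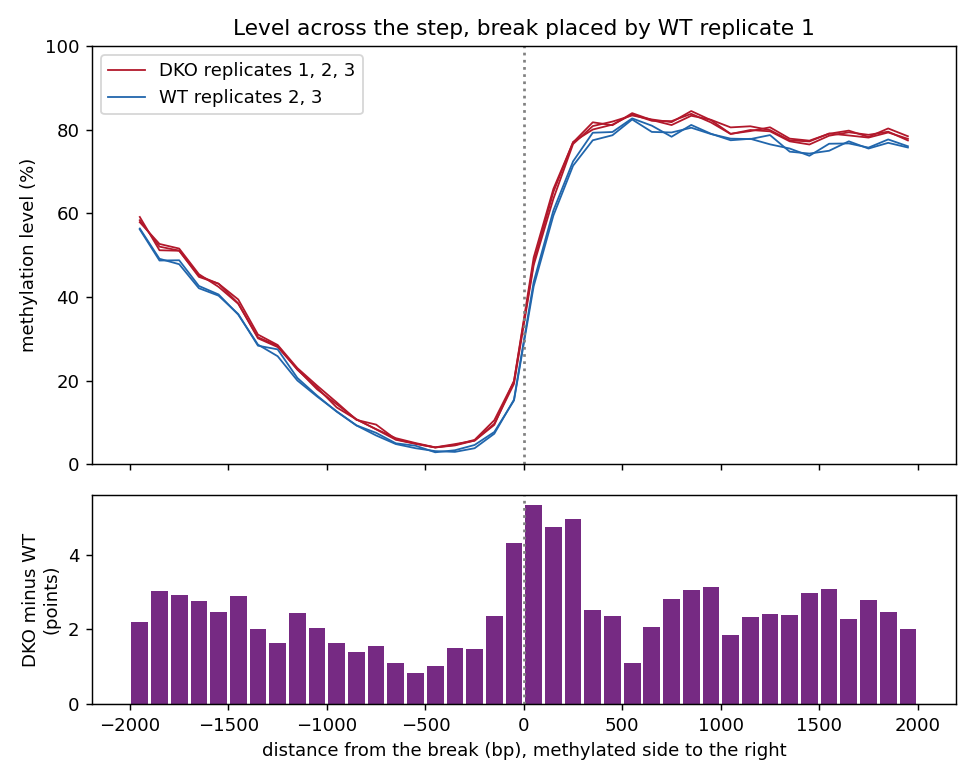
Methylation level (%) in 100 bp steps by distance from the break (bp, methylated side to the right) for 3 DKO samples and WT replicates 2 and 3, over 1581 windows whose break was placed by WT replicate 1, with the same weight for each CpG and DKO minus WT in points below. The difference is 5.33 points in the first 100 bp of the methylated side and 0.822 points 500 to 600 bp into the unmethylated side.

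By pattern, the windows chosen on pooled WT reads differed as follows. Even windows had 51.02, 50.6 and 51.8% in DKO and 47.0, 49.0 and 46.9% in WT, a difference of 3.51 points with no overlap. With the same weight per CpG they differed by 3.53 points, but WT replicate 2, at 54.2%, was then above all DKO samples, which had 53.4 to 53.6%. Mixed windows had 21.3, 20.1 and 20.0% in DKO and 19.2, 18.4 and 17.9% in WT, a difference of 1.94 points, or 1.98 with the same weights. Stepped windows had 23.1, 22.4 and 23.1% in DKO and 22.8, 21.7 and 21.8% in WT, where the groups overlapped and differed by 0.780 points, and by 2.23 points with the same weights and no overlap. The 520 windows with too few covered CpGs went the other way. They had 31.4, 30.6 and 31.2% in DKO and 32.6, 31.5 and 32.9% in WT, with every DKO sample below, a difference of -1.25 points. In the 357 of them with 8 shared CpGs the difference was -1.87 points with reads as counted and 2.61 points with the same weight for each shared CpG.

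Windows between high neighbours differed more between the groups than those at a border. Classed by WT replicate 1, the 194 windows between high neighbours had 39.4, 38.5 and 37.9% in DKO and 35.2 and 35.1% in WT replicates 2 and 3, a difference of 3.45 ± 0.417 points. The 691 windows between a low and a high neighbour had 18.3, 17.7 and 18.7% in DKO and 16.3 and 16.8% in WT, a difference of 1.66 ± 0.392 points. In neither class did the groups overlap. The difference between these classes was 1.80 ± 0.644 points (SE, exact permutation p = 0.2, the smallest possible), and it was 3.36 and 1.98 points with WT replicates 2 and 3 as classing samples. The classes also differ in WT level. With the same weight per CpG they differed between the groups by 4.63 and 2.20 points. In the bands of pooled WT level this value was 4.05 points at 30 to 40% and 1.68 points at 15 to 20%. Whether neighbours matter apart from the WT level was not tested. Windows with a start site had 18.6, 17.4 and 18.8% in DKO and 18.6, 17.9 and 18.3% in WT, with overlap and a difference of -0.012 points, or 1.65 points with the same weights. Those without one were 1.82 points higher in DKO, or 2.43 with the same weights.

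Gains and losses of single windows went both ways. Group means differed by at least 10 points upwards in DKO in 377 windows (13.6%; background over all tested windows 8.42%) and downwards in 135 (4.87%; background 2.12%). Among the CpG-dense windows below 10%, 108 (0.741%) were higher by 10 points and 7 (0.0480%) lower; their mean WT level leaves almost no room to fall by that much. At a like density of 41 to 50 CpGs the counts were 215 and 65 of 1479 partly methylated windows and 53 and 1 of 3268 windows below 10%. All DKO samples were higher than all WT samples in 214 windows (7.72%; background 9.05%) and lower in 132 (4.76%; background 3.75%). With both conditions, 157 windows were higher (5.67%; background 4.60%) and 56 lower (2.02%; background 0.949%). The WT level chose the windows, so nothing is read from these counts. In the 2566 windows with 8 shared CpGs, 323 were higher and 121 lower by 10 points with reads as counted, and 250 were higher and 61 lower with the same weight per CpG. Of the 157 higher windows 139 had at least 8 shared CpGs, and 128 of these kept their sign and 65 their 10 points. Of the 56 lower windows 52 had as many, and 34 kept their sign and 8 their 10 points.

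The quasi-binomial test over all 774732 windows called 55 of the partly methylated windows higher in DKO (1.98%; background 0.490%) and 21 lower (0.758%; background 0.00723%). A call needed a Benjamini-Hochberg adjusted p under 0.05 and group means at least 10 points apart. The rule asks for a pooled WT level of at least 10%, and the same WT reads enter this test, so the rule itself favours calls lower in DKO here and leaves little room for them in windows below 10%, which gave 29 calls higher and 0 lower. Nothing is read from these shares. Of the called windows with at least 8 shared CpGs, 47 of 48 kept a higher level and 18 of 20 a lower level with the same weight per CpG, and 33 and 7 still differed by 10 points. The median difference of those 20 lower windows was -15.7 points with reads as counted and -7.08 points with the same weights. The number of calls changed with the samples and the settings. Without DKO replicate 2 it was 3 higher and 0 lower, and without any other single replicate it was 9 to 16 higher and 2 to 6 lower. With all samples it was 3 and 1 with a minimum of 10 reads, 3 and 2 with a minimum of 40 reads, and 0 and 0 with limma or with the replicate number as a block.

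The largest gain without overlap was at chr11:120047001-120048000, with 69.3, 47.5 and 89.4% in DKO and 29.5, 11.9 and 16.7% in WT. At chr17:23747001-23748000, a stepped window between high neighbours, the level was 74.3, 57.1 and 81.7% in DKO and 10.5, 24.1 and 35.0% in WT. At chr4:132807001-132808000 it was 55.1, 67.5 and 50.7% in DKO and 13.3, 24.6 and 17.3% in WT. In each of these windows the DKO samples spread widely. The rule that named them asked for groups without overlap. With the same weight per CpG the gain was 24.2 points at chr17:23747001-23748000, against 47.8 with reads as counted, and 33.5 points at chr4:132807001-132808000, against 39.4. The first window had only 4 CpGs read in all 6 samples. The fourth window, chr19:37624001-37625000 with the Exoc6 start site, had 62.0, 18.6 and 60.9% in DKO and 15.3, 8 and 14.5% in WT. Its 300-base promoter, printed above, was at 0% in every sample with a read there, and it held 6 of 79, 87 of 140 and 0 of 69 reads of the window in DKO and 64 of 98, 93 of 125 and 117 of 172 in WT. The DKO samples with few reads in the unmethylated promoter were the ones with a high level, and only 6 CpGs of the window were read in all 6 samples. The remaining gains, at chr12:87039001-87040000, chr7:25740001-25741000, chr7:4642001-4643000 and chr11:119873001-119874000, were 32.2 to 33.4 points. With the same weights they were 31.0 points at chr12:87039001-87040000, 23.8 at chr7:25740001-25741000 and 41.7 at chr11:119873001-119874000, and chr7:4642001-4643000 had only 7 CpGs read in all 6 samples.

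The losses without overlap had a median of 83 reads in their shallowest sample, against 101 for the gains. The largest was at chr5:37482001-37483000, between high neighbours, with 26.9, 44.0 and 62.8% in DKO and 67.5, 89.1 and 64.2% in WT, and it was 16.2 points lower in DKO with the same weight per CpG over 13 shared CpGs. The window at chr10:45298001-45299000 had 1.64, 0 and 2.35% in DKO and 36, 22.6 and 10.3% in WT, and it was 10.0 points lower with the same weights. The window at chr8:73027001-73028000 had 29.1, 26.8 and 30.8% in DKO and 56.5, 40.9 and 59.5% in WT, but differed by -1.84 points with the same weights. Of the 8 losses, 7 had too few covered CpGs for a pattern. Start sites lay in 4 of them. E2f6, a transcriptional repressor, started in chr12:16817001-16818000, which had 18.04, 17.5 and 17.98% in DKO and 75, 24.8 and 22.9% in WT, so that WT replicate 1 set most of the gap, and with the same weights the window was 5.96 points higher in DKO. Hspg2, the proteoglycan perlecan, started in chr4:137024001-137025000, with 3.75, 0 and 8.81% in DKO and 17.3, 19.3 and 44.8% in WT, and only 2 of its CpGs were read in all 6 samples. Gpi1, an enzyme of glycolysis, started in chr7:35015001-35016000, with 16.3, 11.4 and 4.85% in DKO and 44.4, 16.8 and 30.0% in WT, and it differed by -1.44 points with the same weights. The last of them held D630003M21Rik at chr2:158054001-158055000, where 4 CpGs were read in all 6 samples, too few to weight alike. These losses are those of the windows, and the promoters were low in both groups. In pooled reads the promoters of Gpi1 and D630003M21Rik were at 0% in DKO and 0% in WT. The E2f6 promoter was at 8.97% in DKO and 6.25% in WT. That of Hspg2 was at 0% in DKO, where 17 of its 27 CpGs had no read, and at 1.98% in WT.

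Gene lists showed which genes start in windows of this class. The class is that of the window, and the promoter itself can lie outside its limits. In pooled reads the Hlf promoter was at 0% in DKO and 0% in WT, and that of Tdrkh at 0.303% and 0%. The Stag3 promoter was at 11.6% in DKO and 3.91% in WT, and that of Dazl at 97.8% and 97.6%. Other promoters were in the middle range, such as that of Tdrd1, at 67.5% in DKO and 37.6% in WT. Of 24 imprinted genes with a placed promoter, 18 started in a CpG-dense window, and 10 had a start in a partly methylated window, 7 in one below 10% and 2 in one above 80%, a gene with several start sites counting in each. Of 17 germ cell genes in dense windows, 7 started in a partly methylated window, 0 in one below 10% and 10 in one above 80%. Developmental transcription factors had 1 of 32 in a partly methylated window and 31 in one below 10%. Blood transcription factors had 3 of 17 in a partly methylated window and 15 in one below 10%. These lists were chosen with results of these data known.

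Imprinted genes filled 9 partly methylated windows, since Peg3, a zinc finger gene, and Usp29 share one. The mean was higher in DKO in 8 of the 9, with a median difference of 9.46 points, against 0.894 over all partly methylated windows, and all DKO samples were above all WT samples in 2 of them, which the quasi-binomial test also called. Over all partly methylated windows the mean was higher in 55.5%, all DKO samples were above in 7.72% and 1.98% were called higher. With the same weight per CpG the mean was higher in DKO in 9 of the 9, with a median of 8.01 points, against 1.74 over all partly methylated windows. Nnat had 75.7, 63.0 and 60.3% in DKO and 26.1, 56.6 and 43.1% in WT. Ndn had 64.8, 39.5 and 53.6% in DKO and 34.9, 29.2 and 18.5% in WT. Their groups were apart by small gaps, as the WT samples of Nnat spanned over 30 points. Meg3 had 37.7, 53.4 and 75.5% in DKO and 38.3, 33.0 and 41.8% in WT, an even window in which the lowest DKO sample lay among the WT samples. Mest, an imprinted hydrolase-like gene, had 39.4, 27.7 and 40.9% in DKO and 10.1, 16.5 and 40% in WT, with overlap. Igf2r, the receptor that clears Igf2, had 31.5, 27.4 and 22.3% in DKO and 20.5, 16.7 and 27.3% in WT, again with overlap. Gnas, the stimulatory G protein subunit, had 11.5, 16.1 and 26.1% in DKO and 15.6, 3.23 and 37.6% in WT. The windows of Plagl1, a zinc finger gene, Zrsr1, a splicing factor relative, and of Peg3 and Usp29 differed by 9.46, 2.05 and 4.91 points and overlapped. Alleles were not told apart in the table, so these levels are means over both copies.

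Germ cell genes filled 7 windows. The mean was higher in DKO in 5, the median difference was 5.51 points, and all DKO samples were above all WT samples in 1, which the quasi-binomial test also called, against the same shares over all windows. With the same weight per CpG the mean was higher in 4 of the 7, with a median of 1.16 points. Dazl and Dmc1 were then lower in DKO, and Tdrkh was higher by 1.61 points. The window without overlap was Tdrd1, with 88.3, 73.8 and 66.0% in DKO and 52.9, 54.8 and 49.2% in WT. Smc1b, a subunit of meiotic cohesin, had 42.5, 45.1 and 38.4% in DKO and 40, 33.5 and 35.9% in WT. Tex14, with a WT step of 90.2 points, had 57.5, 53.8 and 34.4% in DKO and 56.3, 48.2 and 65.4% in WT. In both the groups overlapped. Dazl, an RNA-binding protein of germ cells, had 49.9, 27.6 and 27.2% in DKO and 16.9, 40.7 and 30.6% in WT, while the promoter of the gene lay across the end of the window. Dmc1, the meiotic recombinase, was at 18.5, 26.7 and 32.4% in DKO and 19.07, 18.4 and 18.8% in WT. Stag3, of meiotic cohesin, and Tdrkh, of the transposon-silencing pathway, were both stepped and differed by 3.11 and -1.05 points.

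The remaining list members were T, Ebf1, Pax5 and Hlf. T, the mesoderm factor brachyury, had 10.0, 7.19 and 6.67% in DKO and 9.45, 12.9 and 11.3% in WT. Ebf1, a B cell factor, was the only blood factor without overlap between groups, with 5.77, 6.29 and 2.66% in DKO and 9.96, 11.3 and 13.4% in WT. Pax5, another B cell factor, had 13.01, 15.7 and 16.4% in DKO and 15.2, 23.7 and 17.3% in WT, with overlap. Hlf, a factor of blood stem cells, had 28.7, 46.5 and 8.53% in DKO and 12.1, 9.46 and 39.4% in WT, with wide overlap. With the same weight per CpG, T was 1.43 points and Pax5 12.1 points higher in DKO, so both changed sign. Ebf1 then differed by -14.1 points over 9 shared CpGs and Hlf by 5.81 points over 15. None of these 4 windows was called by the quasi-binomial test.

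**Figure D5:**
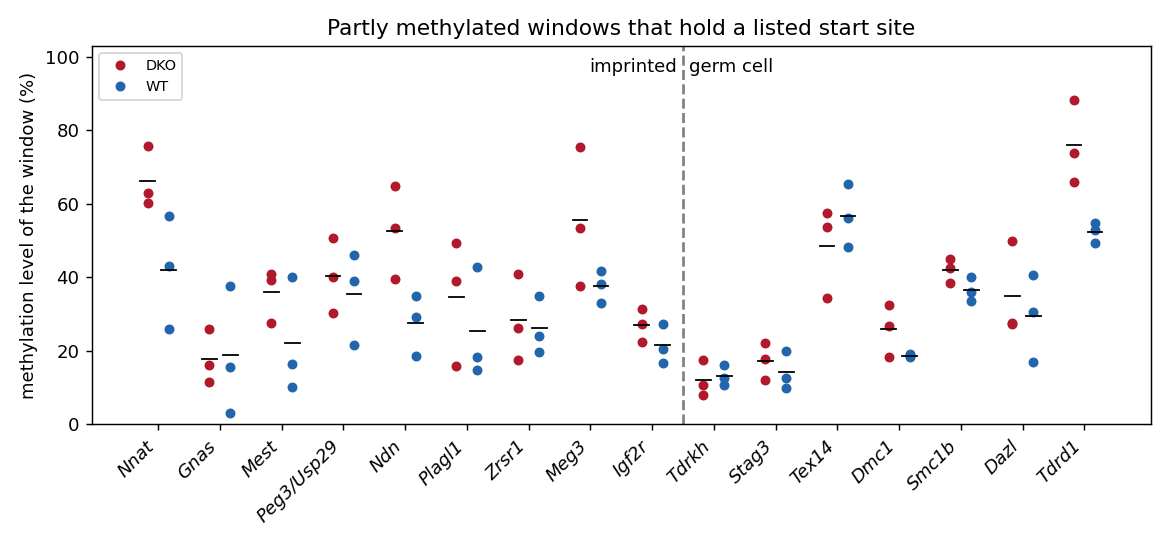
Methylation level (%) of each partly methylated window that holds the start site of a listed imprinted gene (left of the dashed line) or germ cell gene (right), per sample, with DKO points left of WT points and black lines at the means. Every DKO sample lies above every WT sample at Nnat, Ndn and Tdrd1, and the groups overlap at the other genes.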

How the data were processed

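Whole-genome bisulfite sequencing libraries of LSK cells were compared between 3 Tet2/3 DKO and 3 WT samples. The authors deposited raw counts: for 20451903 CpGs and each sample, how many reads were methylated and how many there were in all. The submitters' processing notes name BSMAP 2.74 and mouse build mm9. How reads were filtered, trimmed and cleared of duplicates is not given in the sources used here. Reads repeated by PCR would add error beyond that of counting.

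Counts were added up per 1 kb window, with coordinates from 1 on mm9, in Python 3.11.15 with numpy 2.4.6, scipy 1.17.1 and numba 0.67.0. Windows listing 3 or more CpGs and holding 20 or more reads per sample were tested with a quasi-binomial logistic model, with dispersion moderated as by limma's squeezeVar and p-values adjusted by the Benjamini-Hochberg method; the shared prior had 23.7 degrees of freedom, so samples of a group can differ widely in a called window. Limma 3.58.1 in R 4.3.3, Fisher's exact test and a replicate block were alternatives. Values pooled over windows were set against each other by exact permutation over samples, two-sided; 3 samples against 2 cannot go below 0.2.

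Of 15382 autosomal RefSeq promoters with at least 8 CpGs, 15095 (98.1%) were placed on mm9 at the only position on their chromosome with the same CpG spacing. Named windows were, leaving out chromosome 18, windows above 3 times the median depth and all but 1 window of a run, the 8 largest differences in each direction without overlap, the 4 largest steps, the 4 most even windows and those nearest the limits, and members on the gene lists. Windows, lists and rules were chosen with earlier results of these data known. No pair of replicates agreed within sampling noise (chi-square of reads per degree of freedom 18.8 to 26.9).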

Additional observations from a re-analysis of the deposited data

How the results depend on the processing

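Of the alternative values, 0 reversed, 34 moved and 69 stayed the same. Many of them are counts of windows, which have no direction and so could not reverse. For differences with a permutation test, staying the same means that the sign was kept. Their p could not pass the threshold at any setting, so nothing is read from its side. The larger difference between high neighbours than beside a low one, 1.80 points, kept its sign but reached 3.36 points with WT replicate 2 as the classing sample. The difference over all partly methylated windows moved to 2.19 points with the same weight per CpG and to 2.07 points with a WT level of 20 to 70%, and it was 1.08 to 1.64 points without 1 replicate. Classed by WT replicate 1, it was 2.14 to 2.69 points without 1 replicate. Windows at least 10 points higher numbered 250 with the same weight per CpG, 74 with at least 61 CpGs and 235 at a WT level of 20 to 70%, and 381 to 431 without 1 replicate. Windows at least 10 points lower numbered 61, 35 and 83 under the same changes and 169 to 235 without 1 replicate, the most without WT replicate 2. Mixed windows numbered 753 with a step of at least 40 points. With neighbours called low below 20% and high at 70% or more, 56 windows had both low and 373 both high.

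Calls of the quasi-binomial test, 55 higher and 21 lower, were 3 to 16 higher and 0 to 6 lower without 1 replicate, 3 and 1 with a minimum of 10 reads, 3 and 2 with a minimum of 40 reads, and 342 and 108 by Fisher's exact test on pooled reads, which leaves out the variation among replicates. Limma on log2 ratios called 0 and 0, with 70 of the windows at an unadjusted p under 0.05, of which 34 were higher. The quasi-binomial test with the replicate number as a block called 0 and 0, with 459 windows at an unadjusted p under 0.05, of which 295 were higher. The numbers did not pair the samples: correlations of same-numbered deviations were -0.017, 0.026 and -0.022. The causes were not tested.

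Depth limits the values of single windows, where few molecules carry many read calls. Of the 2771 windows, 520 could not be given a pattern and 2566 had at least 8 CpGs read in all 6 samples.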
